A study of Mus musculus with 2 samples.

Results

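The mitochondrial solute carriers of the Slc25 family, with the uncoupling proteins Ucp1, Ucp2 and Ucp3, were read on 2 single-colour oligonucleotide arrays of mouse intestinal epithelium. They were chosen by name: every non-control probe whose gene name in the scanner files starts with Slc25a and a number, or is Ucp1, Ucp2 or Ucp3, apart from Slc25a20. This gave 46 genes and 56 probes, of 23615 named genes and 55678 non-control probes. A further 5 probes, of Slc25a51, Slc25a53 and Slc25a54, carry an older gene name in the files and fell outside the rule.

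Segments of intestine from wild-type male mice were kept for 2 h in 0.5 µM cholic acid, which is a primary bile acid, or in the vehicle (0.05% DMSO with 0.25% ethanol), and RNA of the epithelial cells was hybridised. A solvent is named for the vehicle only, and the labels do not give the age of the mice or their number. The region of the intestine is not spelled out, and the sample titles read S_I_Segment. There was 1 array for cholic acid and 1 for vehicle, so the differences have no replicate check and the conditions could not be tested. Genes were therefore counted by size, and the number of arrays limits the precision.

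Slc25 carriers are encoded in the nucleus and nearly all sit in the inner mitochondrial membrane, where each moves a small set of metabolites between the cytosol and the matrix. Among them are the exchangers of ADP and ATP, the phosphate carrier, the carriers of the malate-aspartate shuttle, and importers of coenzymes and iron. Uncoupling proteins belong to the same family, and Ucp1 lets protons re-enter the matrix of brown fat cells to make heat. In the intestinal epithelium mitochondrial oxidation of glutamine, glutamate and fatty acids supplies much of the energy for absorption.

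Values are the scanner software's processed signals in fluorescence units, which are background-subtracted. The cholic acid array was dimmer: among probes that both arrays read well above background, the 75th percentile of signal was 741 on the cholic acid array and 1060 on the vehicle array. Each array was divided by its own percentile, so equal scaled levels correspond to a cholic acid signal 0.699 times the vehicle signal. All differences below are log2 scaled signal, cholic acid minus vehicle. They hang on this scaling: scaling on the spike-in controls instead shifted every difference by -0.89, so that positive differences smaller than that shift turned negative, those of 4 of the 6 T cell markers below among them. Across 12804 genes measured on both arrays the median difference was 0.08, and 42.7% of these genes lay below 0.

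The epithelial label held for the marker list: 10 of 10 epithelial markers were measured on both arrays, their median difference was -0.12 with a range of -0.71 to 0.61, and their summed scaled level was 871 with cholic acid and 768 with vehicle. That order rests on Fabp2: without it, a reading added after its values were seen, the other 9 summed to 404 with cholic acid and 462 with vehicle, with Epcam at -0.64 and Cldn7 at -0.71. Lymphocyte markers were higher with cholic acid. Each of the 6 T cell markers lay above 0, with a median difference of 0.86 and a summed scaled level of 17.8 with cholic acid against 9.77 with vehicle. Of 4 B cell markers, 2 were measured on both arrays at differences of 1.54 and 2.77, and Ms4a1 was well above background with cholic acid alone; the summed level was 0.971 with cholic acid and 0.163 with vehicle. The 4 markers of the myeloid list had a median of 0.34, with sums of 2.06 with cholic acid and 1.64 with vehicle. Of them Ptprc, which is not particular to myeloid cells, differed by 1.30, against -0.11 for Itgam, 0.27 for Csf1r and 0.40 for Cd68. The 5 measured of 7 smooth muscle and fibroblast markers had a median of 0.98, with sums of 1.20 with cholic acid and 0.866 with vehicle, and Myh11 and Des were not well above background. In the endothelial list Pecam1 differed by -0.25 and Cdh5 was not well above background. The part of these markers in the carrier values was not tested, and in such bulk RNA fewer cells of a type and less RNA per cell cannot be told apart.

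Of the 56 carrier probes, 39 passed the software's flag for well above background on both arrays, 2 passed it with cholic acid alone and 15 passed it on neither array. By gene, 33 of 46 carriers were measured on both arrays with the same probe, against 54.2% of all named genes. Slc25a29 and Slc25a41 were above background with cholic acid alone, which held for 3.12% of named genes, and 0 carriers with vehicle alone, which held for 2.49%. The remaining 11 genes were well above background on neither array. Before scaling, the processed signal was lower with cholic acid for 36 of the 39 probes measured on both arrays and higher for 3, among them the probe of Slc25a12 and 1 of the probes of Slc25a44.

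**Figure D1:**
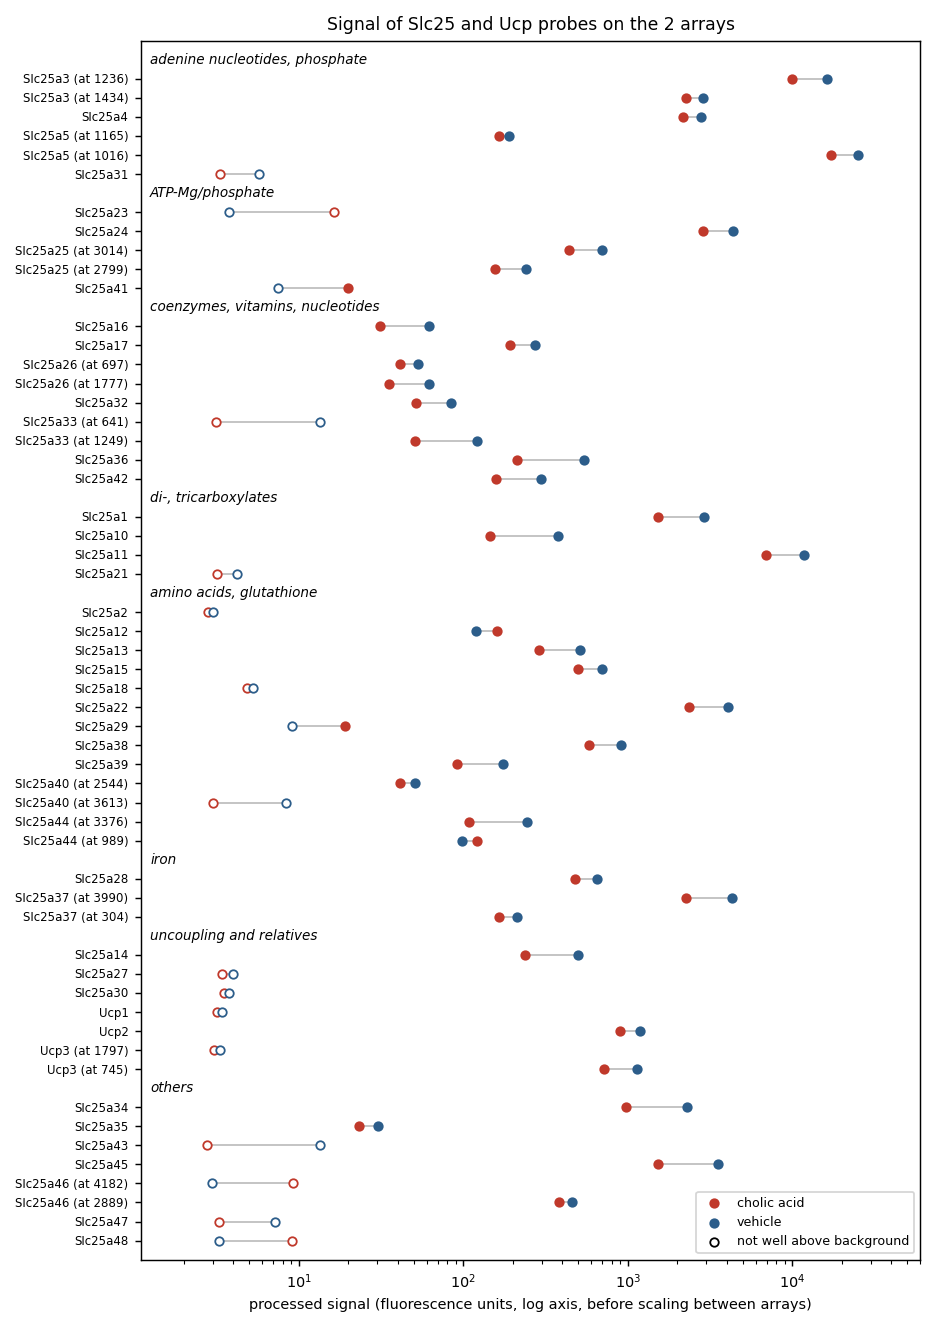
Processed signal of the carrier probes on the cholic acid array (red) and the vehicle array (blue), in fluorescence units on a log axis before scaling between arrays; open circles were not well above background, and the number after a gene gives where its probe starts in the transcript. In 36 of the probes measured on both arrays the red point lies left of the blue one, beside a ratio of 0.699 between the arrays' 75th percentiles.

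Several carriers were read by a pair of probes, and the sequences of the upstream probes of 4 of them are given here because their results turn on which probe is read. Each is a 60-base probe in the orientation of the transcript, copied from the scanner files, with positions on mm9 as the files give them. The Slc25a44 probe lies at chr3:88224424-88224483 (minus strand), the Slc25a37 probe at chr14:69902797-69902856 (minus strand), the Slc25a26 probe at chr6:94548392-94549185 (plus strand, its span showing that it crosses an exon junction) and the Ucp3 probe at chr7:107630399-107630458 (plus strand).
Slc25a44: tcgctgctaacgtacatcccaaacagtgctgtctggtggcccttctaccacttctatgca
Slc25a37: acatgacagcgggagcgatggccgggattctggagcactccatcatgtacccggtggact
Slc25a26: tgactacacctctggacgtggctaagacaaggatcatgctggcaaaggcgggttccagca
Ucp3: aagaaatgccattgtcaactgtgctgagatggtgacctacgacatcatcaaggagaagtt

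No carrier was 2-fold apart, against 8.56% of all genes measured, in either direction. Among the 33 measured carriers, 0 were at least 2-fold higher with cholic acid, against 6.51% of all genes measured, and 0 at least 2-fold lower, against 2.05%. Differences ran from -0.84 for Slc25a10 to 0.94 for Slc25a12, with a median of -0.14, and 21 of 33 carriers (63.6%) lay below 0, against 42.7% of all genes. Relative to the median of all genes, 24 carriers were below and 9 above. At a limit of 1.5-fold, 5 carriers were lower, Slc25a10, Slc25a36, Slc25a33, Slc25a34 and Slc25a45, where 7.69% of all genes were. At the same limit 2 were higher, Slc25a12 among them, against 17.7% of all genes.

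As a yardstick for a single gene, the robust SD of differences among its 1000 neighbours in mean signal was used, called the spread below. It describes these arrays and is not an error between animals. The spread is taken about the neighbours' own median, while the distances below are from 0. Of the measured carriers, 9 (27.3%) lay more than 1 spread from 0, 7 of them lower and 2 higher, against 36.5% of all genes. More than 2 spreads from 0 lay 0 carriers, against 10.3% of all genes. The scanner software models an error for each spot, which for a single well-lit probe comes to about 0.20 on the log2 difference. By that error 6 carriers were lower and 2 higher by over 2 errors, where 14.4% of all genes were lower and 25.3% higher.

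**Figure D2:**
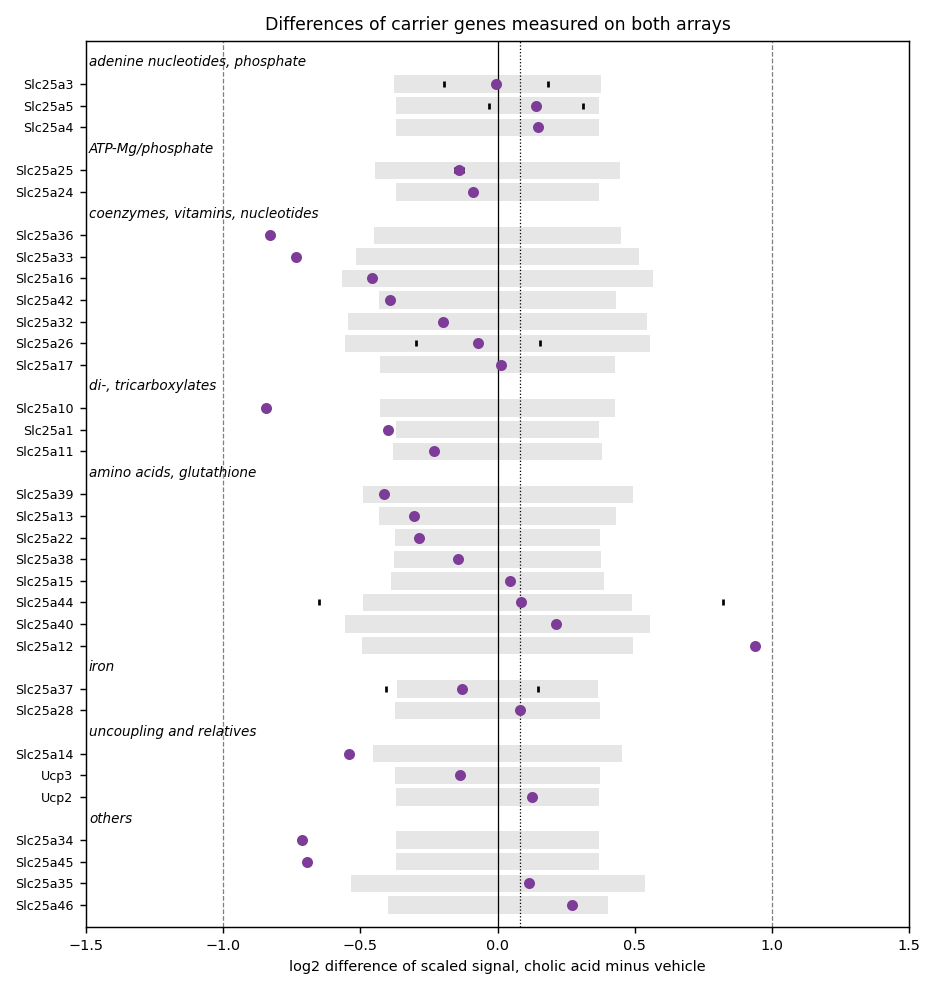
Log2 difference of scaled signal, cholic acid minus vehicle, for carriers measured on both arrays, by substrate group; grey bars reach 1 spread of the nearest 1000 genes either side of 0, black ticks are the probes of genes with a pair of measured probes, the dotted line is the median of all genes and dashed lines mark 2-fold. No carrier reaches a dashed line, and Slc25a10, Slc25a34, Slc25a45, Slc25a36, Slc25a33, Slc25a14, Slc25a1 and Slc25a12 lie outside their grey bar.

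The carriers of ADP, ATP and phosphate, which feed and drain ATP synthase, differed little. Slc25a4, the ADP/ATP carrier of heart and muscle, is spotted 10 times on each array. Its spots had signals of 2060 (lowest), 2165 (median) and 2330 (highest) with cholic acid, against 2700, 2800 and 2880 with vehicle. After scaling, the spots ran from 1.48 to 1.65 with cholic acid and from 1.35 to 1.44 with vehicle on the log2 scale. Whether the spot ranges of other probes spotted as often also lay apart was not counted. The spread for Slc25a4 was 0.37. Spots of an array share its RNA and are not replicates of the treatment; the difference of the means was 0.15, but 0.01 with median centring, -0.08 with the percentile over all probes and -0.74 with spike-ins. Slc25a5, the ADP/ATP carrier of proliferating and epithelial tissues, gave signals of 17100 with cholic acid and 25000 with vehicle at the probe starting at base 1016 of its transcript, a difference of -0.03. Its other probe, at base 1165, gave 164 and 189, a difference of 0.31, and the gene averaged 0.14. Slc25a3, which brings phosphate in for ATP synthesis, gave 9950 with cholic acid and 16300 with vehicle at base 1236, a difference of -0.20. At base 1434 it gave 2270 and 2860, a difference of 0.18, so that its probes cancelled to -0.01. Slc25a31, an ADP/ATP carrier known from testis, was at background, with signals of 3.31 with cholic acid and 5.74 with vehicle.

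In the group of ATP-Mg and phosphate exchangers, which set the size of the matrix adenine nucleotide pool and answer to calcium, both measured members differed by under 1 spread. Slc25a24 had signals of 2860 with cholic acid and 4350 with vehicle, a difference of -0.09. Slc25a25 had 440 with cholic acid and 701 with vehicle at base 3014, and 155 and 242 at base 2799. Its probes differed by -0.16 and -0.13 and were the only measured pair in the family on the same side of 0. Slc25a41, a relative that lacks the calcium-binding part, had a signal of 20.0 with cholic acid, well above background, and 7.48 with vehicle, not well above background. Against the lowest signal called well above background on the vehicle array, 14.6, its cholic acid signal was 1.96-fold higher under this scaling. The flag is set for each spot, so this floor does not strictly limit a probe that failed it, and no least fold is claimed. Slc25a23, at 16.3 with cholic acid and 3.79 with vehicle, passed that flag on neither array, so no fold is given.

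Coenzyme, vitamin and nucleotide carriers were all measured, 8 of 8, with a median of -0.30 and 6 below 0; the lowest was at -0.83. Slc25a36 and Slc25a33 both carry pyrimidine nucleotides, which mitochondria need to copy and transcribe their DNA. Slc25a36 had signals of 213 with cholic acid and 542 with vehicle, and was 1.78-fold lower with cholic acid (-0.83, spread 0.45). Slc25a33 had 50.8 with cholic acid and 121 with vehicle at base 1249, 1.67-fold lower (-0.74, spread 0.52). With normexp background correction its difference was -0.24, under the 1.5-fold limit. Its other probe, at base 641, was at background, at 3.12 with cholic acid and 13.4 with vehicle.

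The following coenzyme carriers stayed within 1 spread of 0. The coenzyme A carrier Slc25a42 had signals of 158 with cholic acid and 297 with vehicle (-0.39), and its relative Slc25a16 had 31.3 with cholic acid and 61.5 with vehicle (-0.46). With loess on mean signal Slc25a16 was at -0.75, and its spread in the values given here was 0.57. With normexp background correction Slc25a16 was at 0.02. Slc25a32, linked to folate and FAD in the matrix, had 51.4 with cholic acid and 84.3 with vehicle (-0.20). Slc25a17, which sits in peroxisomes rather than mitochondria and carries coenzyme A, FAD and NAD, had 191 with cholic acid and 271 with vehicle (0.01). Slc25a26 imports the methyl donor S-adenosylmethionine. Its probe printed above, at base 697, had 41.5 with cholic acid and 53.3 with vehicle (0.16), and its probe at base 1777 had 35.3 and 62.1 (-0.30), giving a mean of -0.07. With normexp Slc25a32 was at 0.09 and the Slc25a26 mean at 0.24, while Slc25a42 stayed below 0 at -0.23.

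All 3 measured carriers of di- and tricarboxylates lay below 0, with a median of -0.40, where 42.7% of all genes lay below 0. Of them Slc25a10 alone passed the 1.5-fold limit and 2 software errors. The dicarboxylate carrier Slc25a10 exchanges malate and succinate for phosphate and had the lowest difference in the family. Its probe (chr11:120359439-120359498 on mm9, plus strand) gave signals of 146 with cholic acid and 375 with vehicle, 1.80-fold lower with cholic acid (-0.84, spread 0.43). Slc25a1, which exports citrate for fatty acid and sterol synthesis, had 1530 with cholic acid and 2890 with vehicle (-0.40, spread 0.37). Slc25a11, the oxoglutarate-malate exchanger of the malate-aspartate shuttle, had 6960 with cholic acid and 11700 with vehicle (-0.23, spread 0.38). Slc25a21, a carrier of longer oxodicarboxylates, was at background, with 3.18 with cholic acid and 4.22 with vehicle.

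Carriers of amino acids and glutathione were spread over both sides, 4 of 8 measured below 0, with a median of -0.05 and a range of -0.41 to 0.94. The aspartate-glutamate exchangers of the malate-aspartate shuttle lay apart from each other. Slc25a12 (aralar) had signals of 161 with cholic acid and 120 with vehicle at its probe (chr2:71112979-71113038 on mm9, minus strand), 1.92-fold higher with cholic acid (0.94, spread 0.50), the highest difference in the family. Slc25a13 (citrin) had 290 with cholic acid and 513 with vehicle (-0.31, spread 0.43). The glutamate carrier Slc25a22 had 2340 with cholic acid and 4080 with vehicle (-0.29), and its close relative Slc25a18 was at background, with 4.84 with cholic acid and 5.30 with vehicle. Slc25a15, the ornithine carrier of the urea cycle, had 499 with cholic acid and 692 with vehicle (0.04), while the related Slc25a2 was at background, with 2.80 with cholic acid and 3.02 with vehicle.

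Slc25a38 carries glycine for haem synthesis and had signals of 579 with cholic acid and 915 with vehicle (-0.14). Slc25a39, an importer of glutathione, had 91.3 with cholic acid and 174 with vehicle (-0.41). Slc25a40, its nearest relative, had 41.3 with cholic acid and 51.0 with vehicle at base 2544 (0.21), while its probe at base 3613 was at background, with 3.02 with cholic acid and 8.31 with vehicle. These carriers lay within 1 spread of 0. Slc25a29, a carrier of basic amino acids, had 19.0 with cholic acid, well above background, and 9.13 with vehicle, not well above it. Against the same floor, 14.6, its cholic acid signal was 1.86-fold higher under this scaling, which again is not a strict bound.

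Slc25a44, a carrier of branched-chain amino acids, had probes that went opposite ways. The probe printed above, at base 989, had signals of 121 with cholic acid and 98 with vehicle and was 1.77-fold higher with cholic acid (0.82), though not with spike-in scaling. The probe at base 3376 (chr3:88214562-88214621 on mm9, minus strand) had 109 with cholic acid and 245 with vehicle and was 1.57-fold lower (-0.65). Their mean of 0.08 stands for neither of them, and the gap of 1.47 between them was several times the software error of about 0.21 of each. The files give the probes under different transcript accessions of the gene; whether they read different transcripts was not tested.

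The mitochondrial iron importers, or mitoferrins, supply iron for haem and iron-sulphur clusters. Slc25a28 (mitoferrin-2) had signals of 478 with cholic acid and 646 with vehicle (0.08). Slc25a37 (mitoferrin-1) had 164 with cholic acid and 212 with vehicle at base 304, the probe printed above (0.15), and 2250 with cholic acid and 4270 with vehicle at base 3990 (chr14:69860020-69860079 on mm9, minus strand; -0.41). Their mean was -0.13.

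Of the uncoupling proteins and their relatives, 3 of 6 were measured. Ucp2, which is expressed in many tissues including gut and immune cells, had signals of 900 with cholic acid and 1180 with vehicle (0.13, spread 0.37). Ucp1 was at background, with 3.17 with cholic acid and 3.44 with vehicle. Ucp3, best known from skeletal muscle, gave conflicting readings from its probes: 718 with cholic acid and 1130 with vehicle at base 745 (-0.14), the probe printed above, and 3.06 with cholic acid and 3.31 with vehicle at base 1797, which is background. As its probes disagree, the Ucp3 value is uncertain. Ucp2 and Ucp3 are close paralogs, and binding of Ucp2 transcripts to the upstream Ucp3 probe was not tested. Slc25a14 had 238 with cholic acid and 496 with vehicle (-0.54, spread 0.45). Its relatives Slc25a27 and Slc25a30, known mainly from brain and kidney, were at background, with 3.41 and 3.49 with cholic acid against 3.96 and 3.75 with vehicle.

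The 7 remaining carriers have substrates that are less well established. Slc25a34 had signals of 980 with cholic acid and 2300 with vehicle, 1.64-fold lower with cholic acid (-0.71, spread 0.37), and Slc25a45 had 1530 with cholic acid and 3540 with vehicle, 1.62-fold lower (-0.69, spread 0.37). Slc25a35, which resembles Slc25a34, had 23.1 with cholic acid and 30.5 with vehicle (0.12). Slc25a46, an outer membrane member tied to mitochondrial shape, had 384 with cholic acid and 455 with vehicle at base 2889 (0.27), and its probe at base 4182 was at background, with 9.25 with cholic acid and 2.98 with vehicle. Slc25a43, Slc25a47 and Slc25a48 were not well above background on either array, with 2.78, 3.28 and 9.07 with cholic acid against 13.4, 7.19 and 3.26 with vehicle.

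Probes on opposite sides of 0 were not limited to Slc25a44. The gaps of the other such carriers ran from 0.34 for Slc25a5 to 0.55 for Slc25a37, against 1.47 for Slc25a44. Each probe difference has a software error of about 0.20 or more. Of 6 carriers with a pair of probes measured on both arrays, 1 had both probes on the same side of 0, and the median gap between probes was 0.42. Over all 2556 genes with exactly 2 measured probes, 70.8% had both on the same side, with a median gap of 0.25. That share was not matched for genes with differences near 0. For 211 probes with at least 9 measured spots on both arrays, single-spot log2 differences had a median SD of 0.11.

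**Figure D3:**
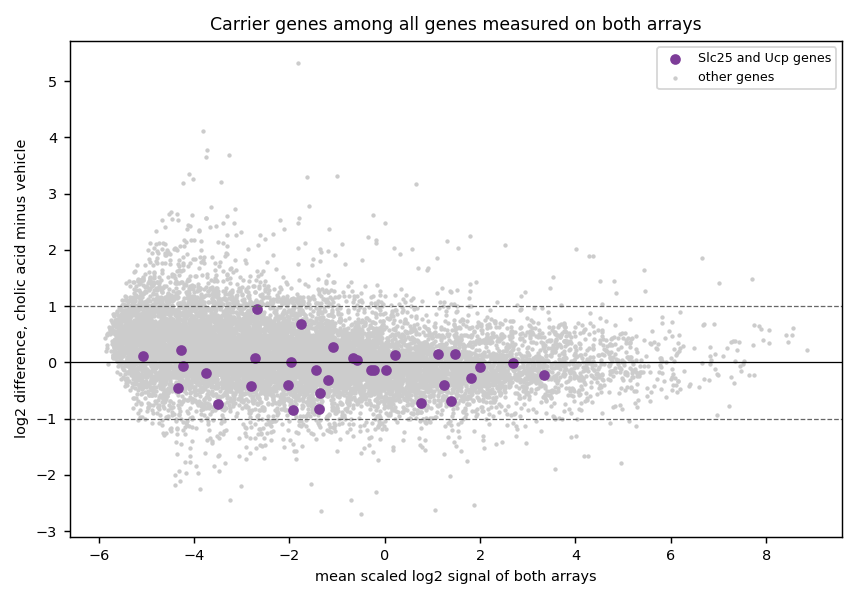
Log2 difference, cholic acid minus vehicle, against mean scaled log2 signal of both arrays, for the carriers (purple) and all other genes measured on both arrays (grey), with dashed lines at 2-fold. All 33 carriers lie between the dashed lines, from -0.84 to 0.94.

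Genes that work beside the carriers were read for comparison. Of 24 listed genes, 22 were measured, with a median of -0.08, 12 below 0, 1 at least 2-fold lower (2.05% of all genes) and 1 at least 2-fold higher (6.51%). Among the 6 genes that insert carriers into the inner membrane the median was -0.04. Timm9, a small chaperone that escorts carriers across the space between the membranes, had signals of 30.4 with cholic acid and 96.4 with vehicle. It was 2.22-fold lower (-1.15, spread 0.54), but -0.33 with normexp background correction. Its partner Timm10 differed by 0.37, the insertion channel Timm22 by 0.31 and the carrier receptor Tomm70 by -0.59. The values of Timm9, Timm22 and Tomm70 each come from a single measured probe, and another probe of each was not measured on both arrays. Sfxn3, a sideroflexin and serine carrier outside the Slc25 family, had 116 with cholic acid and 76.4 with vehicle and was 2.17-fold higher (1.12, spread 0.50), but under 2-fold in all 8 alternatives of scaling, background correction and deposited values (0.23 to 0.98).

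The 3 outer membrane channels Vdac1, Vdac2 and Vdac3, through which metabolites reach the carriers, had a median of -0.18. Mpc1 and Mpc2, which together form the pyruvate carrier, differed by -0.01 and -0.39. The divergent relatives Mtch1 and Mtch2 differed by 0.07 and -0.15. General mitochondrial genes had a median of -0.06 over 6 genes, among them citrate synthase Cs at -0.15, the chaperone Hspd1 at 0.31 and the import receptor Tomm20 at -0.30. These are RNA levels, and the amount of mitochondria was not measured. Whether the carrier median of -0.14 differs from these medians could not be tested with 1 array per group.

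The place of each carrier against the array's other genes was recomputed under 12 alternative settings of scaling, background correction, filter and probe choice. Set against the all-gene median of that setting, 22 of 33 carriers stayed on their own side in every setting that measured them. In 3 of the settings, the percentile over all probes, median centring and spike-in scaling, every gene shifts by the same amount, which cancels here, so only the other 9 could move a carrier against that median. Among those, the filters and the choice of the brightest probe leave the difference of a carrier with a single probe unchanged and move only the all-gene median. Quantile normalization and the deposited table gave close values, with carrier medians of -0.22 and -0.23. Of the 22 carriers that kept their side, 19 were below the all-gene median, among them the 5 carriers at least 1.5-fold lower. The other 3 were above, Slc25a12 and Slc25a46 among them. Relative to that median Slc25a10 ranged from -1.24 to -0.78, Slc25a36 from -1.23 to -0.82, Slc25a33 from -1.56 to -0.42 and Slc25a12 from 0.54 to 0.91. The carrier median itself lay between -1.03 and -0.04. It was below that of all genes by 0.22 in the values given above, a gap that those 3 settings cannot alter, and by 0.16 to 0.44 in the other 9.

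**Figure D4:**
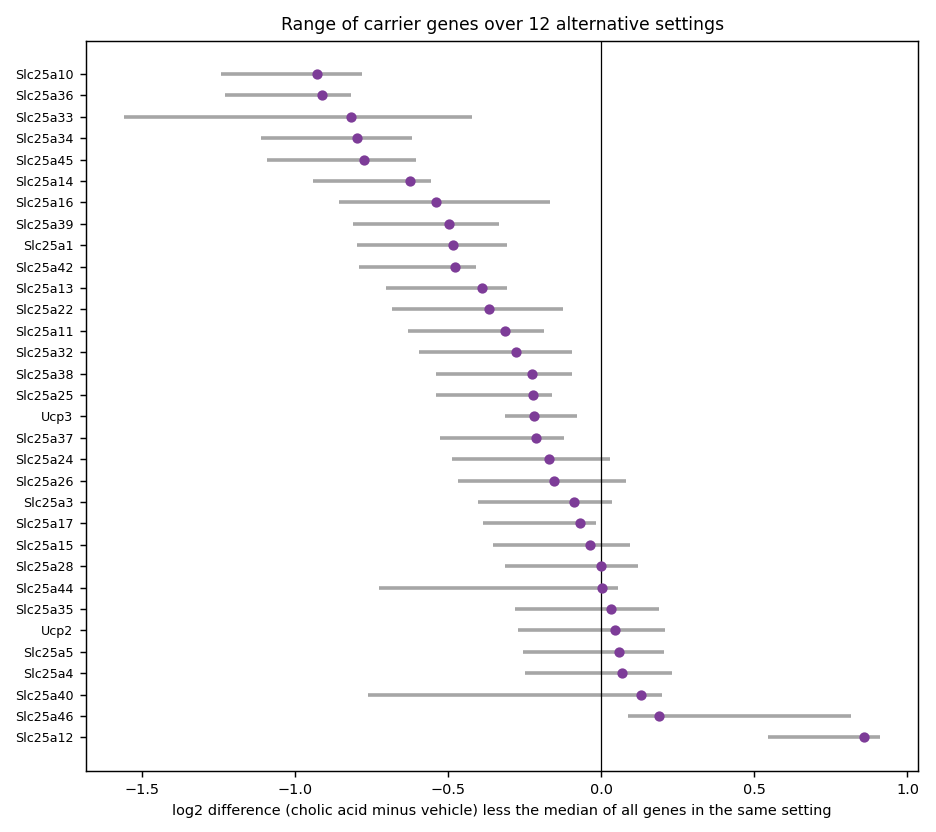
Log2 difference of the carriers, cholic acid minus vehicle, less that setting's all-gene median; points are the values given in the text and grey lines run from the lowest to the highest of the 12 alternative settings. Slc25a10, Slc25a36, Slc25a33, Slc25a34 and Slc25a45 lie wholly left of 0, and Slc25a12 and Slc25a46 wholly right of it.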

How the data were processed

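Per the labels' protocols, TRIzol and a column served to isolate total RNA, and its amplified cRNA carried Cy3. Spot intensities were deposited as scanner output for array design 028005 (mm9 positions), per the file headers, which name Agilent Feature Extraction 10.7.1.1; the submitters' processing notes name 9.5.1.1. The processed intensity is background-subtracted and given to 3 significant digits, per the file headers and values, and other deposited columns flag each spot. A table of processed intensities from the authors was used as an alternative; its median is 10.09 on each array, and its log2 values and the scanner's correlated over probes at r = 0.9998 for cholic acid and 0.9999 for vehicle. Its normalization is not given in the sources used here.

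Of 62976 spots on each array, 3671 were controls and left out, as were 119 outlier spots with cholic acid and 124 with vehicle; 0 were saturated. Well above background were 24448 probes with cholic acid, 24202 with vehicle and 22613 (40.6%) on both. Log2 signals were averaged over a probe's spots and scaled on their 75th percentile, taken over the probes above background by that flag on both arrays. A gene is the mean over such probes, by the scanner files' names updated through a RefSeq gene table of GRCm38.p6 used for names only (27233 probes named by accession, 3581 by symbol, 560 by synonym, 1370 with the name kept, 22934 unnamed). What is called a bound sets the brighter signal against the lowest signal well above background on the dim array, or the dim probe's own where higher. As the flag is set for each spot, such a bound is not strict. Both arrays lie on the same slide and scan. Measured carriers are named and drawn, apart from an item that is not reported here but stays in the counts and medians. The members and lists were chosen with earlier results of these data known. The exon annotation of mm9 was not used here. Python 3.11.15, pandas 2.3.3, statsmodels 0.14.6, R 4.3.3 and limma 3.58.1 (normexp, offset 50) were used, and the calculation was tested on simulated data.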

Additional observations from a re-analysis of the deposited data

How the results depend on the processing

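With 1 array per condition no replicate could be left out. No paired analysis was possible because each group has 1 array and no test was run. The count of carriers at least 2-fold apart, 0 of 33, stayed 0 with median centring, quantile normalization, loess on mean signal, normexp, a minimum signal of 50, the brightest probe of a gene and a 3-fold limit. It became 2 lower with the 75th percentile over all probes, 1 lower with a lowess on probe GC content, 1 lower in the deposited table, 18 lower with spike-in scaling, 7 of 46 without a filter on dim probes (5 higher, 2 lower), 2 higher of 36 with the positive and significant flag, and 7 at 1.5-fold (2 higher, 5 lower). The carrier median of -0.14 moved to -0.37 with the percentile over all probes, -0.27 with median centring, -1.03 with spike-in scaling, and -0.26 over 30 genes with the 3′-most probe of each, an alternative chosen after seeing the data. The all-gene median moved by -0.89 with spike-in scaling on 7 spike-in probes, by -0.23 with the percentile over all probes, by between -0.15 and -0.12 with median centring, quantile, loess, GC and the deposited table, by 0.10 with normexp and by 0.31 without the filter. Of all genes at least 2-fold apart, 76.0% were higher in the values reported, 43.9% with the percentile over all probes, 58.1% with median centring, 51.3% with quantile normalization and in the deposited table, 56.7% with loess, 59.7% with GC and 2.49% with spike-ins. Of the carriers, 18 of 33 kept the sign of their own difference in all 12 settings, and 20 in all but spike-in scaling. Of the companion genes, 2 were at least 2-fold apart; 1 was with the percentile over all probes, median centring, quantile, loess, GC and the deposited table, 0 with normexp and 11 with spike-ins. With the positive and significant flag as floor the bounds, log2 0.90 for Slc25a29 and 0.97 for Slc25a41, became 1.57 and 1.94. The cholic acid signals behind them, 19.0 for Slc25a29 and 20.0 for Slc25a41, had software errors of 19.9% and 17.85%. The vehicle signals, 9.13 for Slc25a29 and 7.48 for Slc25a41, had software errors of 39.5% and 43.6%. Spike-in scaling shifts every difference by -0.89, which is nearly the size of both bounds. The cause of these changes was not tested. Signals near background limit the 13 carriers not measured on both arrays.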
